A study of Mus musculus with 3 samples.

Results

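The immediate early response genes described here are 10 genes: Fos, Fosb, Fosl1, Jun, Junb, Egr1, Klf6, Zfp36, Nr4a1 and Ier3. They were chosen by gene symbol, with earlier results of these data known, so their counts beside all-gene shares only describe them. Each had 1 probe set on the Affymetrix Mouse Gene 1.0 ST array, whose probes lie along the exons of a transcript. In all, 19938 genes had a probe set of their own. Kidneys came from female CBL/6 mice of 8 to 10 weeks. The NTS/PGE2 array came from mice injected with NTS, nephrotoxic serum raised in sheep, which starts an immune nephritis in the glomerulus, at 13.5 ug per g of body weight; from day 2 they also had daily prostaglandin E2 (PGE2), a signalling lipid, at 5 ug per g. The NTS array came from mice given the serum alone, and kidneys of both treated groups were taken on day 7. The control array came from non-treated mice. The labels name no vehicle group and do not give the number of animals behind an array. Since each group had 1 array, every difference below stands without replicates and without a p-value, and the small number of arrays sets its precision.

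Immediate early genes are switched on within minutes of a growth factor, cytokine or stress signal, from factors that are already in the cell, so that no new protein has to be made first. Most encode transcription factors, which in turn set the later genes of the response; others, such as Zfp36, shorten the life of the messages so induced. Their RNAs are short-lived, so a level read in whole kidney is a snapshot of recent signalling, and in injured tubules several of them are known to be induced early. In whole kidney, fewer cells of a type and less RNA per cell cannot be told apart.

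All values are log2 values after RMA, the authors' normalization, so a difference of 1 is 2-fold. The filter on dim genes asked that the brighter of the 2 arrays compared read a gene at or above that array's median probe set, which was 7.14 for NTS/PGE2, 7.11 for NTS and 7.11 for control. As a measure of how well probe sets agree, 460 genes with 2 bright probe sets were used. How far their 2 differences lay apart gave an SD per probe set. This SD was 0.21 between NTS/PGE2 and NTS, 0.20 between NTS and control, and 0.12 between NTS/PGE2 and control. It leaves out the spread between animals. Both probe sets read the same RNA on the same arrays, so it also leaves out technical spread between arrays. The arrays read as kidney, with all 9 proximal tubule markers at or above the median on each of the 3 arrays. The 3 comparisons share arrays, so their values are given side by side and are not independent of each other.

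**Figure D1:**
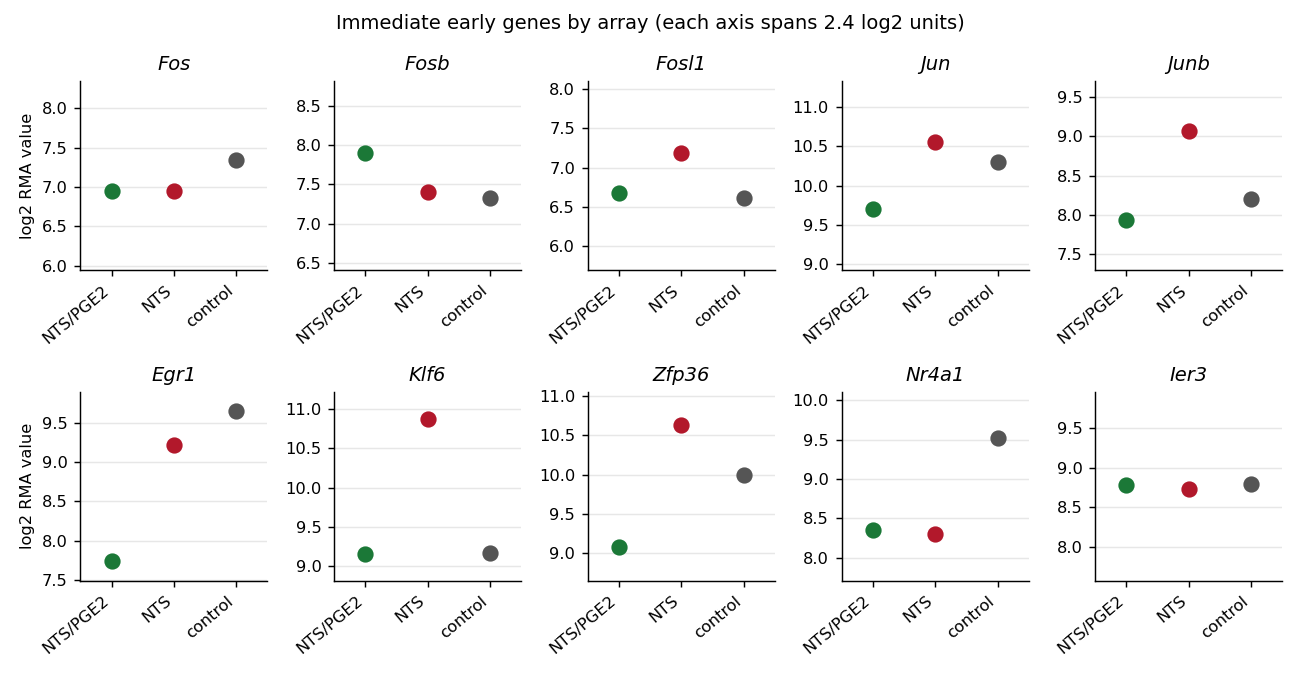
Log2 RMA value of each of the 10 genes on the NTS/PGE2, NTS and control arrays, with 1 point per array and no error bar, since there is 1 array per group; every vertical axis spans the same range. Jun, Junb, Klf6, Zfp36 and Fosl1 were highest on the NTS array, Egr1 and Nr4a1 were highest on the control array, and Ier3 was nearly level.

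The comparison of NTS with control read the 10 genes in nephritis kidney of day 7 beside the untreated kidney. The genes did not move as a block. Klf6 was 3.26-fold higher on the NTS array and Nr4a1 2.32-fold lower, and the other 8 lay within 2-fold. Of the 10 genes 6 were higher and 4 lower, where 32.8% of all 19938 genes were higher, 30.2% lower and 37.0% exactly equal. The median difference was 0.16 for the 10 genes and 0 for all. Shares by any amount, here and below, take all genes without the filter. Only 11787 genes passed it in this comparison, while all 10 did, so the 2 sets are not alike. The genes past 2-fold were 1 of 10 in each direction, where 2.7% of all genes that passed the filter were that much higher and 5.41% that much lower, and so few say little against these shares. Between the same arrays 7 of 8 injured tubule markers were at least 2-fold higher for NTS, and 8 of 10 adipocyte markers, 6 of 8 endothelium markers and 8 of 9 proximal tubule markers at least 2-fold lower. The part of these cell types in the immediate early values was not tested, here or in the comparisons that follow.

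The comparison of NTS/PGE2 with NTS read the 10 genes in kidney given serum and then daily PGE2 beside kidney given serum alone. Klf6, Zfp36, Egr1 and Junb were each at least 2-fold lower on the NTS/PGE2 array, by 3.28-fold, 2.93-fold, 2.77-fold and 2.19-fold. They made up 4 of the 10 genes, where 3.27% of all genes that passed the filter were at least 2-fold lower. The 10 genes were chosen with earlier results of these data known, so this count and that of the next comparison test no excess. None of the 10 was at least 2-fold higher, where 4.14% of all genes were. By any amount 6 of the 10 were lower, 3 higher and 1 exactly equal, with a median of -0.68. Of all genes 29.3% were lower, 35.1% higher and 35.6% exactly equal, and their median was 0. Fos did not pass the filter here. All 8 injured tubule markers were at least 2-fold lower between the same arrays, and 8 of 9 proximal tubule and 6 of 8 endothelium markers at least 2-fold higher. Of 10 adipocyte markers 2 were at least 2-fold higher and 2 lower, and their median was 0.10.

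The comparison of NTS/PGE2 with control addressed how far the kidney given serum and PGE2 still differed from the untreated kidney. Egr1 was 3.75-fold lower on the NTS/PGE2 array and Nr4a1 2.25-fold lower, which is 2 of the 10 genes, where 0.657% of all genes that passed the filter were at least 2-fold lower. None of the 10 was at least 2-fold higher, as was true of all but 0.0605% of genes. By any amount 8 of the 10 were lower and 2 higher, with a median of -0.33. Of all genes 27.5% were lower, 30.7% higher and 41.8% exactly equal. Fosl1 did not pass the filter in this comparison. Of 10 adipocyte markers 7 were at least 2-fold lower between the same arrays, with a median of -3.02, and so were 4 of 7 urothelium and 2 of 6 smooth muscle markers.

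**Figure D2:**
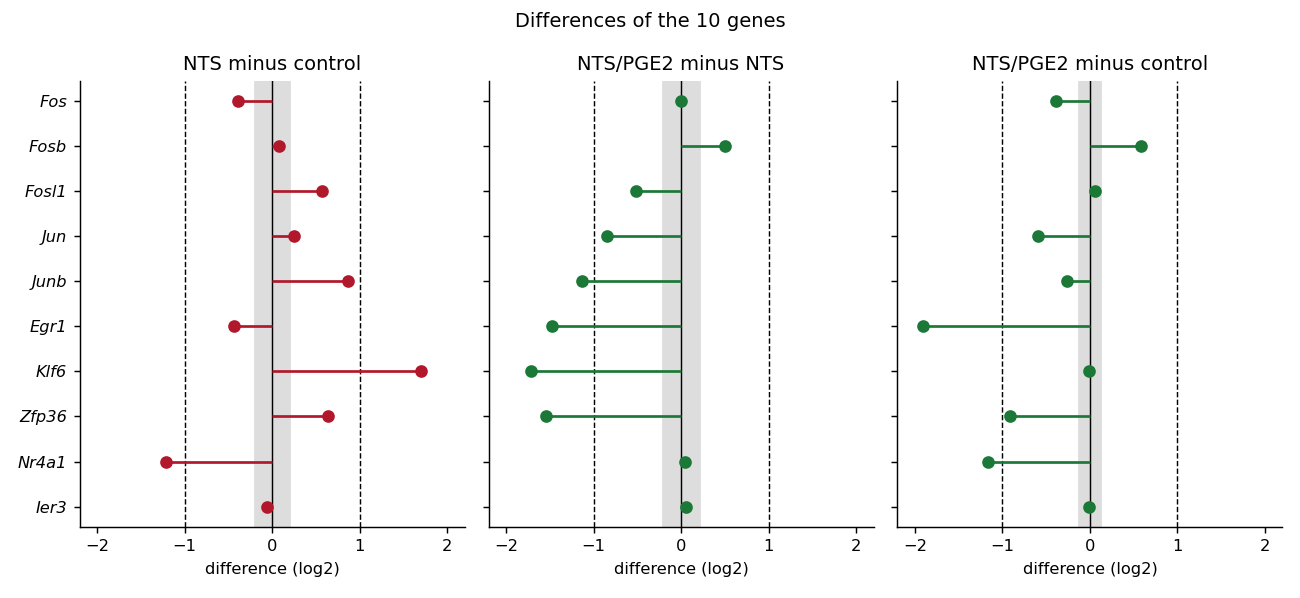
Log2 differences of the 10 genes for NTS minus control, NTS/PGE2 minus NTS and NTS/PGE2 minus control; dashed lines mark 2-fold, and the grey band is 1 SD of one probe set's difference either side of 0. Klf6 and Nr4a1 pass 2-fold in the first panel, Junb, Egr1, Klf6 and Zfp36 in the second, and Egr1 and Nr4a1 in the third.

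Fos, Fosb and Fosl1 encode the FOS side of AP-1, a dimer; a FOS protein needs a JUN partner to bind DNA. Fos, the classical immediate early gene, read 6.95 in NTS/PGE2 kidney, 6.95 in NTS kidney and 7.34 in control kidney. It was highest on the control array, by 0.39, and exactly equal on the other two. An exactly equal value comes readily from the median polish of RMA and is no proof of an unchanged gene, and Fos passed the median only on the control array. Fosb, which encodes a second FOS protein, read 7.90 in NTS/PGE2 kidney, 7.40 in NTS kidney and 7.32 in control kidney. Fosb was thus the only gene of the 10 that was highest after PGE2, by 0.50 over NTS and 0.58 over control. Of the genes that passed the filter, 12.1% were as far above NTS and 0.562% as far above control. Fosl1, which encodes FRA-1, a FOS protein that tends to appear later and last longer, read 6.67 in NTS/PGE2 kidney, 7.18 in NTS kidney and 6.61 in control kidney. Fosl1 stood out on the NTS array by 0.51 over NTS/PGE2 and 0.57 over control, and only there did it pass the median, so its lower values may lie close to background.

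Jun and Junb encode the JUN side; JUN proteins can also pair among themselves, and JUNB often restrains JUN. Jun read 9.71 in NTS/PGE2 kidney, 10.55 in NTS kidney and 10.30 in control kidney. It was lowest after PGE2, with differences of -0.84 from NTS and -0.60 from control, while NTS lay only 0.25 above control, little more than the probe-set SD. Junb read 7.94 in NTS/PGE2 kidney, 9.07 in NTS kidney and 8.21 in control kidney. Junb was therefore highest on the NTS array, 0.86 above control and 1.13 above NTS/PGE2, and the NTS/PGE2 and control arrays differed by -0.27. The FOS and JUN genes did not share 1 pattern: Junb and Fosl1 peaked on the NTS array, Fos was highest on the control array and Fosb on the NTS/PGE2 array.

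Egr1 encodes a zinc finger factor that binds GC-rich sites and is induced through the MAP kinase pathway and serum response factor. It read 7.74 in NTS/PGE2 kidney, 9.21 in NTS kidney and 9.65 in control kidney. Egr1 was lowest after PGE2 by a wide margin, with differences of -1.47 from NTS and -1.91 from control, and NTS itself differed from control by -0.43. Only 24 genes, Egr1 included, or 0.207% of those that passed the filter, were as far below control on the NTS/PGE2 array. Klf6, a Krüppel-like zinc finger factor induced in injured epithelium, read 9.16 in NTS/PGE2 kidney, 10.87 in NTS kidney and 9.17 in control kidney. Klf6 was high on the NTS array alone, and the other two arrays differed by -0.01. On the NTS array 92 genes, or 0.781%, lay as far above control as Klf6.

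Zfp36 encodes tristetraprolin, which binds AU-rich elements in messages such as that of tumour necrosis factor and speeds their decay. It read 9.08 in NTS/PGE2 kidney, 10.63 in NTS kidney and 9.99 in control kidney. Zfp36 was highest on the NTS array, by 0.63 over control, and after PGE2 it lay below both other arrays, by differences of -1.55 from NTS and -0.92 from control. Nr4a1, which encodes the orphan nuclear receptor NUR77, read 8.35 in NTS/PGE2 kidney, 8.30 in NTS kidney and 9.52 in control kidney. Nr4a1 was about equally low in both serum-treated groups, with 0.05 between them, and its differences from control were -1.17 with PGE2 and -1.22 without it. Ier3 (IEX-1), which encodes a small protein of cell survival and stress signalling, read 8.79 in NTS/PGE2 kidney, 8.74 in NTS kidney and 8.80 in control kidney. Its range over the 3 arrays was 0.06, under the probe-set SD in every comparison.

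The 10 genes thus fell into several patterns, sorted by a rule chosen after their values were seen. Fosl1, Junb, Klf6 and Zfp36 were highest on the NTS array by at least 0.50 over both others, which is 4 of 10, where 8.17% of the 11856 genes that reached the median on any array were. Fosl1 reached the median only on the NTS array and so had to be higher there, and nothing is read from this count. Jun, Egr1 and Zfp36 were lowest on the NTS/PGE2 array by at least 0.50 under both others, which is 3 of 10, where 0.978% of genes were. This count, too, is only a description. Zfp36 met both rules. The margin below the nearer array was 1.47 for Egr1, 0.92 for Zfp36 and 0.60 for Jun. Of the genes that missed the second rule, Junb came nearest to it, with a margin of 0.27.

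The stretches before the start sites of the 3 genes that peaked on the NTS array and were more than 2-fold lower after PGE2 (Klf6, Zfp36 and Junb) are shown beside that of Nr4a1, whose level did not follow theirs. Each is the 250 bases before the start in RefSeq's table for GRCm38.p6, 5′ to 3′ on the gene's strand: Klf6 at chr13:5861239-5861488 on the plus strand, Zfp36 at chr7:28379229-28379478 on the minus strand, Junb at chr8:84978749-84978998 on the minus strand and Nr4a1 at chr15:101266596-101266845 on the plus strand. The Nr4a1 start of that table lies inside the annotated gene, which has further starts upstream. Capitals mark the CRE core TGACG, the CCAAT box CCAAT, the EGR site form GCGGGGGCG and the CArG box, each on either strand; none of the marked stretches overlap.
Klf6: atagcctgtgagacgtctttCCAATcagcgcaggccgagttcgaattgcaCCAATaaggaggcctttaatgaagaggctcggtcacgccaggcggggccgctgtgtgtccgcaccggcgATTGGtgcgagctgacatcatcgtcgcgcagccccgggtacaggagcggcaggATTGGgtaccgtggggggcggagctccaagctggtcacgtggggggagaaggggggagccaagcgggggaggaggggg
Zfp36: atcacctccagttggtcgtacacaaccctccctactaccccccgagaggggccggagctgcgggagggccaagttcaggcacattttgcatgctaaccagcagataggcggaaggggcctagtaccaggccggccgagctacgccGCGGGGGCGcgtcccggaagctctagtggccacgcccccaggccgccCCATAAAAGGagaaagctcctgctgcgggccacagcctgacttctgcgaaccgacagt
Junb: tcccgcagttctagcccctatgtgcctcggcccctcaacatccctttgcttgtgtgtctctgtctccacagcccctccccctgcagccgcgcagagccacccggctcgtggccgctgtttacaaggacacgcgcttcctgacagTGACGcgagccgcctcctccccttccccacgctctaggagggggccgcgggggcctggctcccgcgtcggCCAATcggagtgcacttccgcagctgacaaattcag
Nr4a1: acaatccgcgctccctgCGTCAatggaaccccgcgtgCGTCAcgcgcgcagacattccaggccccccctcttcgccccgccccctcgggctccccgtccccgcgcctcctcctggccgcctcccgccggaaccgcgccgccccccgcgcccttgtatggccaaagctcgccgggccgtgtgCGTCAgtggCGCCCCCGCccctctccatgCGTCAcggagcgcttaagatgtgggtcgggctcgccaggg
The 4 stretches differed in the letters they held. Klf6 had 4 CCAAT boxes, Zfp36 a CArG box, the letters that serum response factor reads, together with an EGR site form, and Junb a CRE core with a CCAAT box. Nr4a1 had 4 CRE cores, letters of the element that the cAMP-responsive factor CREB reads, and an EGR site form.

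Promoter stretches were held for 8 of the 10 genes (all but Fosl1 and Egr1), and the same letters were counted in 32851 promoters of the same length on both strands. The CRE core stood in 4 of the 8 (Fos, Fosb, Junb and Nr4a1) and in 17.8% of all promoters. The form GCGGGGGCG stood in 3 of the 8 (Fosb, Nr4a1 and Zfp36) and in 2.57% of all, the CArG box in 1 (Zfp36) and in 1.47%, the CCAAT box in 4 (Ier3, Jun, Junb and Klf6) and in 33.8%, and TATAAA in 1 (Fos) and in 12.4%. The full CRE TGACGTCA, which contains the core, the AP-1 site TGAGTCA, the second EGR form GCGTGGGCG and the ETS form ACCGGAAGT each stood in 0 of the 8, and in 1.55%, 4.46%, 0.536% and 0.804% of all promoters in that order. The 8 stretches held more G and C than the median promoter, between 54.4% for Ier3 and 74.4% for Nr4a1 against 52.4%. A match is a description of letters, not of a bound site.

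The relatives of these genes were read next, from family lists. Of 10 other AP-1 and MAF genes, 7 stood higher for NTS than for control and 0 lower; 1 of them passed 2-fold, and the median was 0.26. For NTS/PGE2 against NTS 5 stood lower and 2 higher, with again 1 past 2-fold, downward, and a median of -0.21. Of all genes 32.8% were higher and 30.2% lower for NTS against control, and 29.3% lower and 35.1% higher for NTS/PGE2 against NTS. Among those that passed the filter, 2.7% were past 2-fold upward in the first comparison and 3.27% downward in the second. In each comparison 8 of the 10 passed the filter, so nothing is read from these counts. The gene past 2-fold was Fosl2 both times, which encodes FRA-2 and read 8.48 in NTS/PGE2 kidney, 9.88 in NTS kidney and 8.64 in control kidney. Fosl2 was higher on the NTS array by 1.24 over control and lower after PGE2 by -1.40. Jund, the most constant JUN gene in most tissues, read 9.37 in NTS/PGE2 kidney, 10.16 in NTS kidney and 9.64 in control kidney, and Atf3, a stress-induced partner of JUN, read 7.72 for NTS/PGE2, 8.51 for NTS and 7.85 for control. Maff, a small MAF factor without an activation domain, read 6.39 in NTS/PGE2 kidney, 7.28 in NTS kidney and 6.39 in control kidney, of which only the NTS value passed the median. All 4 were thus highest on the NTS array, like Junb and Fosl1. The leucine zipper genes Batf and Batf3 did not pass the filter.

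Among 15 other genes of the EGR and KLF families and their NAB co-repressors, 9 stood higher and 2 lower for NTS than for control; 1 passed 2-fold, upward, and the median was 0.14. For NTS/PGE2 against NTS 9 stood lower and 2 higher, with 2 past 2-fold, downward, and a median of -0.40. Of all genes 32.8% were higher for NTS against control and 29.3% lower for NTS/PGE2 against NTS. Among those that passed the filter, as 14 of the 15 did, 2.7% were past 2-fold upward in the first comparison and 3.27% downward in the second. The differences lay mostly in the KLF genes: for NTS against control 8 of the 10 other KLF genes stood higher, with a median of 0.49, and for NTS/PGE2 against NTS 9 of 10 stood lower, with a median of -0.65, Klf2 being equal. This split of the list was made after the values were seen, so nothing is read from its counts. Klf4, a factor of epithelial differentiation, read 8.25 in NTS/PGE2 kidney, 9.35 in NTS kidney and 8.34 in control kidney, a 1.01 difference of NTS from control and -1.10 of NTS/PGE2 from NTS. Klf10, a target of TGF-beta signalling, read 8.48 in NTS/PGE2 kidney, 9.71 in NTS kidney and 9.45 in control kidney, so that it lay below both others after PGE2, like Zfp36. Klf9 and Klf13 stood 0.58 and 0.60 higher for NTS than for control, and their NTS/PGE2 minus NTS differences were -0.74 and -0.69. The EGR relatives did not show what Egr1 did, but they lay near or under the array medians and had less room for such a fall. Egr3 read 7.55 on all 3 arrays, and an exactly equal value is no proof of an unchanged gene. Egr2 stayed below the median, and Egr4 read 7.28 in NTS/PGE2 kidney, 7.18 in NTS kidney and 7.03 in control kidney.

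The nearest relatives of the remaining genes stayed within 2-fold in every comparison. Nr4a2 (NURR1) read 7.56 in NTS/PGE2 kidney, 7.27 in NTS kidney and 7.65 in control kidney, and Nr4a3 read 6.15 on all 3, below the median. Zfp36l1 and Zfp36l2, which encode the other decay factors of the tristetraprolin family in kidney, had NTS/PGE2 minus NTS differences of -0.28 and -0.36 and NTS minus control differences of -0.08 and 0.13. Ier2 read 7.11 in NTS/PGE2 kidney, 7.64 in NTS kidney and 7.17 in control kidney, while Ier5 and Ier5l stayed within 0.05 over all comparisons.

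**Figure D3:**
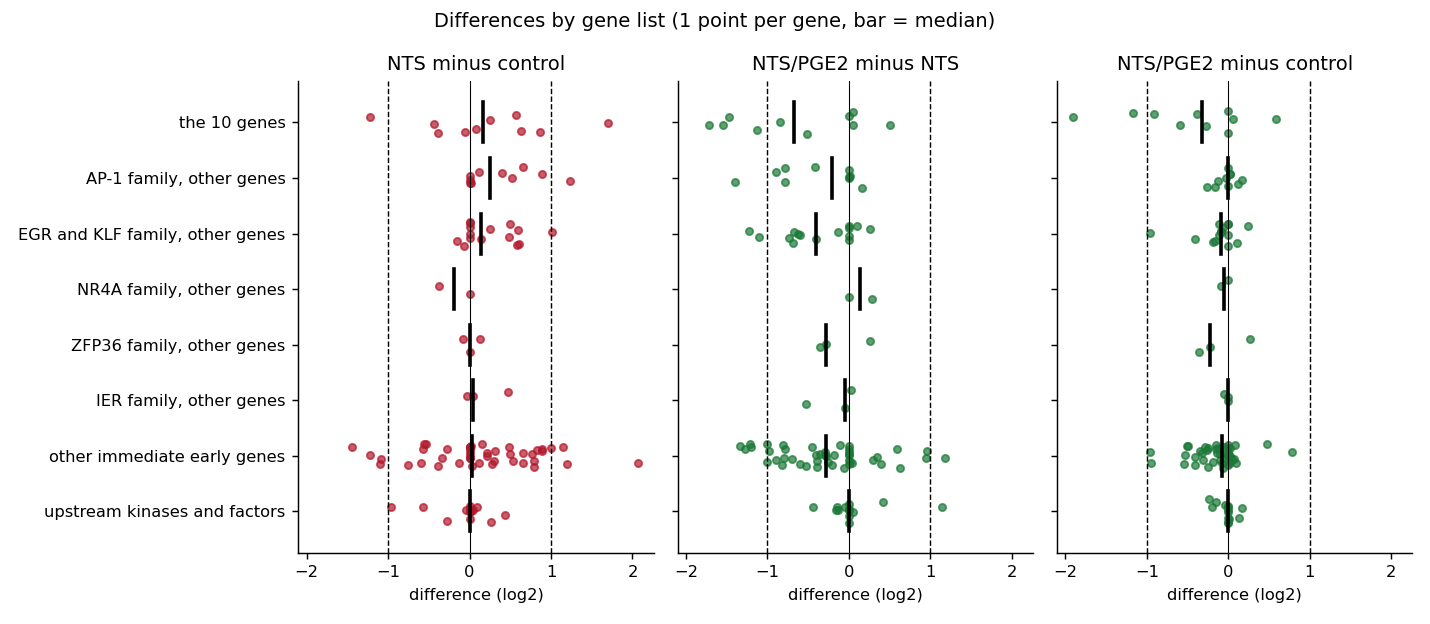
Log2 differences of the 10 genes and of 7 lists of related genes for NTS minus control, NTS/PGE2 minus NTS and NTS/PGE2 minus control; 1 point per gene, black bars are medians and dashed lines mark 2-fold. The median of the 10 genes for NTS/PGE2 minus NTS is -0.68, and that of 45 other immediate early genes is -0.28.

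A wider list of 45 other immediate early genes, which repeats Atf3 and Maff, went both ways on the NTS array. Against control 24 were higher and 13 lower, with 3 past 2-fold upward, 4 past it downward and a median of 0.03. Of all genes that passed the filter 2.7% were past it upward and 5.41% downward, so nothing is read from these counts. The 3 were Nfil3, a leucine zipper repressor, at 2.06, the growth arrest gene Gadd45a at 1.15 and the growth factor-induced Myc at 1.00. The 4 were Gem, a small GTPase that blocks calcium channels, at -1.44, the cyclooxygenase gene Ptgs2 at -1.23, the ERK phosphatase gene Dusp6 at -1.09 and Phlda1 at -1.08. After PGE2, 28 of the 45 were lower than on the NTS array and 10 higher, where 29.3% of all genes were lower and 35.1% higher. Of the 45, 5 were past 2-fold downward and 1 upward, and the median was -0.28. Of all genes that passed the filter 3.27% were past 2-fold downward and 4.14% upward. The 5 were the anti-proliferative gene Btg2 at -1.34, Nfil3 at -1.28, Gadd45a at -1.21, the clock-linked repressor Bhlhe40 at -1.01 and Myc, which read 8.39 in NTS/PGE2 kidney against 9.39 in NTS kidney, and the 1 higher was Gem at 1.18. Against control 0 of the 45 differed 2-fold on the NTS/PGE2 array, with a median of -0.08. Only 0.0605% of all genes that passed the filter were that much higher there and 0.657% lower, so nothing is read from this 0. Ccn1 (Cyr61), a matrix protein induced by serum, was the lowest of the 45 at -0.96. Apart from Nfil3, Gem, Btg2 and Ptgs2, the genes of this list were picked for mention after their values were seen.

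The RNAs of kinases and factors that act upstream of the immediate early response were read as well. Of 14 measured kinases and factors 0 were 2-fold different between NTS and control and 1 between NTS/PGE2 and NTS. That gene was Creb1, the cAMP-responsive factor, which read 9.31 in NTS/PGE2 kidney, 8.17 in NTS kidney and 9.14 in control kidney. Srf, which encodes serum response factor and was picked for mention after its values were seen, read 8.51 on all 3 arrays. Elk3, a partner of serum response factor, read 9.05 in NTS/PGE2 kidney, 8.63 in NTS kidney and 9.20 in control kidney. Of 9 other genes that cAMP is known to induce, 0 differed 2-fold in any of the 3 comparisons. In each, 8 of the 9 passed the filter. For NTS/PGE2 against control 0.0605% of all genes that passed it were at least 2-fold higher and 0.657% lower. Beside this share and those just given, a 0 among so few genes says little. The list's median rounded to 0.00 for NTS/PGE2 against NTS and was 0 in the other comparisons. Per1, the period clock gene, differed most, by 0.89 between NTS and control and by -0.97 between NTS/PGE2 and NTS.

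Downstream, 14 genes known for AP-1 sites in their control regions held 3 past 2-fold upward and 0 downward for NTS against control, and the list's median was 0.20. The 3 were Timp1, Cd44 and Hmox1; Timp1 and Cd44 also stand in the list of injured tubule markers, so for them the lists are the same data. For NTS/PGE2 against NTS 5 were past 2-fold downward and 0 upward, and the median was -0.18. In each of these comparisons 9 of the 14 passed the filter. Of all genes that passed, 2.7% were at least 2-fold higher for NTS against control and 3.27% lower for NTS/PGE2 against NTS. Timp1 and Cd44 reached the median only on the NTS array, so they could be counted only as higher there. Nothing is read from these counts. The metalloproteinase inhibitor gene Timp1 read 6.27 in NTS/PGE2 kidney, 9.99 in NTS kidney and 6.70 in control kidney, and the hyaluronan receptor gene Cd44 read 6.73 for NTS/PGE2, 8.31 for NTS and 6.96 for control. Both were high on the NTS array alone, as Klf6 was, with values below the median on the other two. For NTS/PGE2 against NTS the other 3 past 2-fold were Mmp14, a membrane-bound matrix protease, at -1.11, the vimentin gene Vim, picked after its value was seen, at -1.11 and Hmox1, heme oxygenase, at -1.06. For NTS/PGE2 against control 1 of the 14 was past 2-fold upward and 0 downward. That gene was Hmox1, at 1.05, where 0.0605% of all genes that passed the filter were at least 2-fold higher. Of 13 messages known to be bound by tristetraprolin, 7 did not reach the median in the comparison of NTS/PGE2 with control, and the median difference of the 13 was 0 in each comparison. For NTS against control 1 was past 2-fold upward, Myc, and 1 downward, Ptgs2, both given above. Plk3, a stress kinase gene, read 8.63 in NTS/PGE2 kidney, 8.99 in NTS kidney and 9.58 in control kidney. Il1b, the interleukin-1 beta gene, read 6.83 in NTS/PGE2 kidney, 6.53 in NTS kidney and 7.35 in control kidney, and passed the median only in control.

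Genes of most similar pattern were sought for the 5 members with a 2-fold difference, as the 2 genes at the smallest Euclidean distance in the differences NTS minus control and NTS/PGE2 minus NTS, among 11202 candidates over the 3 arrays. Junb lay nearest to Mmp14, at a distance of 0.03, and Rtn4, at 0.05, with 86 genes within 0.20. Klf6 lay nearest to Cenpu and Tubb2b, at 0.09 and 0.10, with 22 genes within 0.20. Zfp36 lay nearest to the mucin gene Muc1, at 0.04, and Sh3bgrl3, at 0.11, with 6 genes within 0.20, and Nr4a1 nearest to Pparg, at 0.04, and Ociad2, at 0.05, with 7. Egr1 stood most alone of the 5, with 0 genes within 0.20: its nearest was Zfp991 at 0.50, whose NTS/PGE2 value differed by -1.53 from NTS and -1.47 from control, and then Insig1 at 0.69. With 3 arrays a short distance says only that 2 differences are alike.

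**Figure D4:**
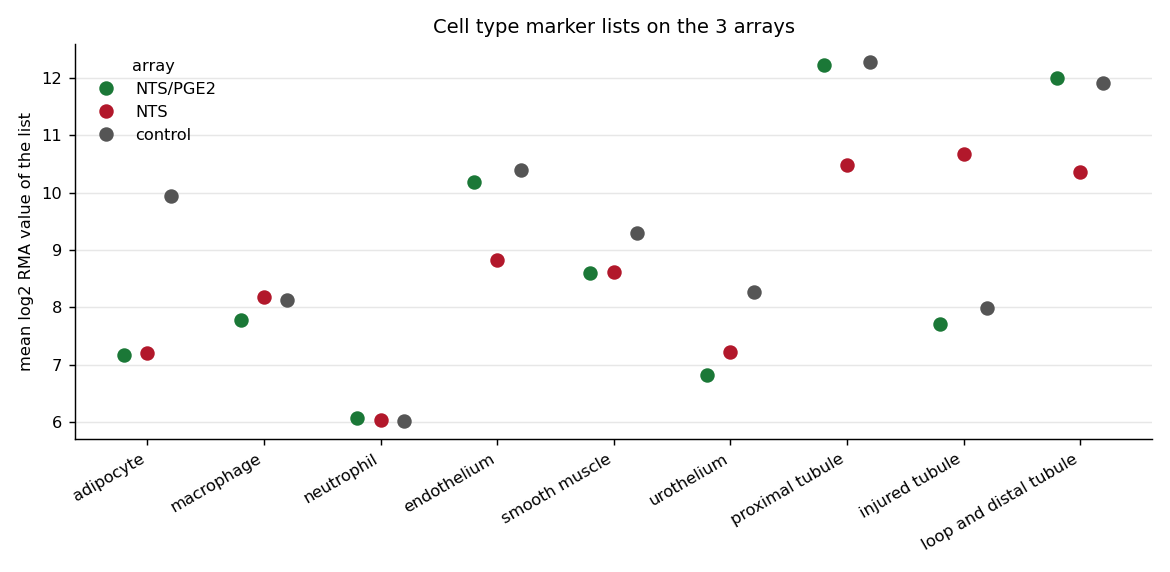
Mean log2 RMA value of 9 lists of cell type markers on the NTS/PGE2, NTS and control arrays, 1 point per list and array. The adipocyte list averages 7.16 for NTS/PGE2, 7.20 for NTS and 9.94 for control, and the injured tubule list 7.72 for NTS/PGE2, 10.67 for NTS and 7.99 for control.

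The levels behind these marker counts were as follows. The summed linear level of 8 injured tubule markers was 2881 in NTS/PGE2 kidney, 27775 in NTS kidney and 5493 in control kidney. The 9 proximal tubule markers summed to 57073 in NTS/PGE2 kidney, 18164 in NTS kidney and 56113 in control kidney, and the 8 endothelium markers to 11230.5 for NTS/PGE2, 4146 for NTS and 12988 for control. The summed fat, smooth muscle and urothelium markers were highest on the control array, although Plin4 and Krt19 read higher on the NTS array than there and Smtn read the same on all 3. For 10 adipocyte markers the sums were 5187 in NTS/PGE2 kidney, 2880.5 in NTS kidney and 18452 in control kidney, and the markers under the 25th percentile of their array numbered 3 for NTS/PGE2, 4 for NTS and 1 for control. The 6 smooth muscle markers summed to 3241 for NTS/PGE2, 3356 for NTS and 5378 for control, and the 7 urothelium markers to 823 for NTS/PGE2, 1219 for NTS and 2380 for control. The 11 macrophage markers summed to 3080 in NTS/PGE2 kidney, 4669 in NTS kidney and 4027 in control kidney, but they went both ways. For NTS against control 3 were at least 2-fold higher and 3 lower, with Cd68 at 2.23 and Cd14 at 2.15 against Ly86 at -1.35 and Csf1r at -1.09. For NTS/PGE2 against NTS 1 was that much higher and 3 lower, and for NTS/PGE2 against control 0 higher and 1 lower. All 8 neutrophil markers stayed under the median on every array.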

How the data were processed

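Total RNA of kidney (250 ng per array) was hybridised to Affymetrix Mouse Gene 1.0 ST arrays, 1 array per group. The deposited table holds log2 values; per the submitters' processing notes, the authors ran RMA (background correction, quantile normalization, median polish) in Affymetrix Expression Console. Neither the software version nor a genome build is given in the sources read here. The table held 35556 probe sets. The platform annotation paired 21789 with a single symbol, 1621 with more than one and 12146 with none; only the first kind was used, and a gene's probe sets were averaged. Symbols were checked through gene identifiers of RefSeq's GRCm38.p6 table, which matched 21698 and altered 0. Differences were taken with pandas 2.3.3, with a size rule of 2-fold and no test, and the calculation was tested on simulated data. The 10 genes and all lists were chosen with earlier results of these data known. The rule for named genes allowed all 10 genes, any gene of 5 family lists, up to 4 genes with the largest difference from each other list, and the 2 genes nearest in pattern to each member with a 2-fold difference; genes named outside it are marked in the text as picked after their values were seen. Alternatives were another choice of probe set, centring of arrays, other size rules and other filters on dim genes. No scanner values were analysed here.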

Additional observations from a re-analysis of the deposited data

How the results depend on the processing

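No paired analysis was possible because each group had 1 array, and for the same reason no array could be left out. Of 126 recalculated values 119 stayed within 1.5 times the count or within the probe-set SD. Many of these could not have moved. Each of the 10 genes had 1 probe set, so another choice of probe set left their values as they were. The shift from centring was at most 0.04, under the smallest probe-set SD of 0.12, so no centred difference or median could leave that range. The 119 is therefore no measure of how robust the values are. Centring the arrays on bright genes turned the sign of 2 differences close to 0 for NTS/PGE2 against control, Klf6 to 0.03 in place of -0.01 and Ier3 to 0.03 in place of -0.01; 0 differences past 2-fold changed sign. With a 1.5-fold size rule, 3 of the 10 genes counted as higher in NTS against control and 4 as lower in NTS/PGE2 against control. With a 3-fold rule, 0 counted as lower in NTS against control, 1 in NTS/PGE2 against NTS (Klf6) and 1 in NTS/PGE2 against control (Egr1). Over all genes for NTS/PGE2 against control, centring the arrays on bright genes gave 12 higher genes in place of 7, and requiring both values at or above the median gave 41 lower genes in place of 76; the first follows from a shift of 0.04 and the second from fewer genes tested. Probes were not set against their background, so values under the median, such as Fos and Fosl1 on 2 arrays each, are the least certain.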
